A study of Mus musculus with 8 samples.

Results

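The unfolded protein response and the integrated stress response were examined in mouse kidney through 10 genes: Ern1, Atf6, Eif2ak3, Atf4, Xbp1, Ddit3, Herpud1, Trib3, Asns and Chac1. They were taken by gene symbol from a deposited table of 55401 genes, in which they occupy 11 rows because the symbol Ddit3 appears under 2 identifiers. Kidney RNA of 8 diabetic male mice had been sequenced, with 1 library per mouse. The rFGF4 group held 4 mice (numbers 1, 2, 3 and 5), treated with rFGF4, a structurally modified recombinant human FGF4 without mitogenic activity. The comparison group held 4 mice without rFGF4 (numbers 2, 3, 4 and 5), labelled as the db/db model, which the text of the study describes as given PBS vehicle. All 8 mice were diabetic, so the comparison concerns rFGF4 within disease and includes no healthy kidney. The sample labels name db/db mice, which lack a functional leptin receptor (C57BLKS/J-leprdb/leprdb), whereas the text of the study describes the sequenced animals as STZ-induced diabetic mice, whose beta cells are destroyed by streptozotocin, and the files do not settle which was used. In both models, treatment lasted 8 weeks, with an injection of 1 mg/kg rFGF4 every other day. The db/db mice were 12 weeks old at the start, whereas for the STZ mice the text of the study is not uniform on the age. Expression was given as FPKM, which divides the fragments of a gene by its exon length and by the size of the library, so that genes of 1 library can be set side by side; between mice, FPKM also moves with the mitochondrial share given below.

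The unfolded protein response senses misfolded proteins in the endoplasmic reticulum (ER) through sensors in the ER membrane. IRE1-alpha, encoded by Ern1, is an endonuclease that removes a short intron from Xbp1 mRNA so that the active factor XBP1s can be made; ATF6 is cut in the Golgi to release a transcription factor; and PERK, encoded by Eif2ak3, phosphorylates the translation factor eIF2-alpha. Phosphorylated eIF2-alpha slows general translation and favours translation of ATF4, and since other kinases act on the same residue, this branch is also called the integrated stress response. ATF4 and its partner CHOP, encoded by Ddit3, induce genes of amino acid supply and of feedback. Kidney epithelial cells carry a large load of membrane and secretory proteins, and this pathway is known to respond in them to protein overload and to diabetes. Splicing of Xbp1 mRNA, cleavage of ATF6, phosphorylation of eIF2-alpha and translation of ATF4 cannot be read from expression per gene, so the values below are mRNA levels of the pathway's components and targets.

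Promoter sequences show which of the genes carry motifs of this pathway near their start. A table of RefSeq promoters on GRCm38.p6, covering 250 bases before and 50 bases after each start, held 9 of the 10 genes and not Atf6. The motifs searched on both strands were CARE (TGATGNAA), which ATF4 with a partner can bind; UPRE (TGACGTGG), bound by XBP1; and ERSE (CCAAT, 9 bases of any kind, CCACG) and ERSE-II (ATTGG, 1 base of any kind, CCACG), bound by ATF6 or XBP1 with NF-Y. CARE was found in Chac1, Trib3, Asns and Herpud1, and ERSE-II also in Herpud1. Among all 32851 promoters of the table, 3.97% held CARE, 0.676% UPRE, 0.119% ERSE and 0.0365% ERSE-II. The stretches below are shown because Chac1, Trib3 and Asns are ATF4 targets that varied most between the mice, and because Herpud1, which varied in another way, held motifs of both kinds, which did not overlap. Capitals mark the motif matches, and sequences run 5′ to 3′ on the strand of the gene; a match on the opposite strand reads as its reverse complement.
Herpud1, chr8:94386179-94386398, plus strand, 250 to 31 bases before the start: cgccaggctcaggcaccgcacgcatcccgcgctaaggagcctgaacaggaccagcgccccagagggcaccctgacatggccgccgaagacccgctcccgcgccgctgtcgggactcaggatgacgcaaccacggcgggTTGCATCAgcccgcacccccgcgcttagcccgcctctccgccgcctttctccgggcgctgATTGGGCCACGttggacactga
Chac1, chr2:119350992-119351211, plus strand, 250 to 31 bases before the start: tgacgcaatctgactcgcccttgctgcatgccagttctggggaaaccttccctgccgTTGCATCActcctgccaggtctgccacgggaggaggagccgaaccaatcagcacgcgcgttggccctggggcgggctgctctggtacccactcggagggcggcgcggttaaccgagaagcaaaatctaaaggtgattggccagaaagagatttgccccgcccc
Asns, chr6:7693214-7693243, minus strand, 30 bases around the match: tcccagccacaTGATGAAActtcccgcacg
Trib3, chr2:152344028-152344057, minus strand, 30 bases around the match: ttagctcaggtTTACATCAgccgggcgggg
The CARE matches lay 193 to 186 bases before the start in Chac1, 112 to 105 before it in Herpud1, 23 to 16 before it in Asns and at bases 15 to 22 after it in Trib3, and ERSE-II of Herpud1 lay 52 to 42 bases before the start. No match was found in the windows of Eif2ak3, Ddit3, Xbp1, Ern1 and Atf4. A match describes letters only, and binding was not measured in these data.

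The deposited table gave no read counts, so the fragments behind a value are unknown and no counting interval could be calculated. The depth of a library relative to db/db mouse 2 was 0.905 to 1.09 in the rFGF4 group and 1 to 1.12 in the db/db group, and summed FPKM was 389404 to 529831 and 481318 to 552600. Mitochondrial transcripts took 19.0% to 36.0% of the summed FPKM in the rFGF4 group and 24.4% to 38.4% in the db/db group, and this share lowers the FPKM of every other gene of the same library. All 13 kidney tubule and glomerulus markers were expressed. Their summed level was 1311 to 2654 FPKM in the rFGF4 group and 1730 to 2430 FPKM in the db/db group, while the 5 adipocyte markers summed to 6.07 to 13.4 and 11.05 to 16.8 FPKM. Most of the adipocyte sum was Fabp4, and Adipoq, Plin1, Cidec and Lep did not exceed 0.558 FPKM in any mouse. The 5 red blood cell markers summed to 120.3 to 2657 FPKM and 1139 to 4325 FPKM. Immune markers differed widely between mice of the same group. The 8 macrophage markers summed to 1275, 460, 128 and 85.0 FPKM in rFGF4 mice 1, 2, 3 and 5 and to 47.2, 328, 59.3 and 1808 FPKM in db/db mice 2, 3, 4 and 5. The 10 B cell and plasma cell markers reached 2851 FPKM in rFGF4 mouse 1 and 23918 FPKM in db/db mouse 5 against 30.7 to 1469 FPKM in the other 6 mice. In whole tissue, fewer cells of a type and less RNA per cell cannot be told apart.

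Of the 10 genes, 9 passed the filter of at least 0.5 FPKM in 4 or more libraries and were tested among 15150 genes with limma's moderated test on log2(FPKM + 1). All 9 had a higher mean of log2 values in the rFGF4 group, with log2 fold changes (rFGF4 minus db/db) of 0.14 to 0.69 and a median of 0.31. None passed an unadjusted p of 0.05 (smallest limma p = 0.0668 and exact permutation p = 0.0857, Atf6) and in none were the 2 groups separate in FPKM. A higher mean was common to 67.1% of all tested genes, whose median log2 fold change was 0.09. At the threshold of the study (unadjusted p under 0.05 and a ratio of 1.5 or more, or of 0.67 or less), 0 of the 9 genes were called, against 232 genes (1.53%) over the whole table, of which 165 (1.09% of tested genes) were higher. An unadjusted p under 0.05 alone was reached by 700 genes (4.62%), 539 of them (3.56%) higher in the rFGF4 group, and 504 genes (3.33%) had groups that did not overlap. No gene of the table had a Benjamini-Hochberg adjusted p under 0.05 (0 of 15150, 0%, smallest adjusted p = 0.918 with limma). Where FPKM was scaled to nuclear genes, removing the mitochondrial share, all 9 log2 fold changes stayed above 0, with a median of 0.22 against -0.01 for all tested genes. The calls at the threshold of the study became 96 higher and 89 lower in place of 165 and 67.

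**Figure D1:**
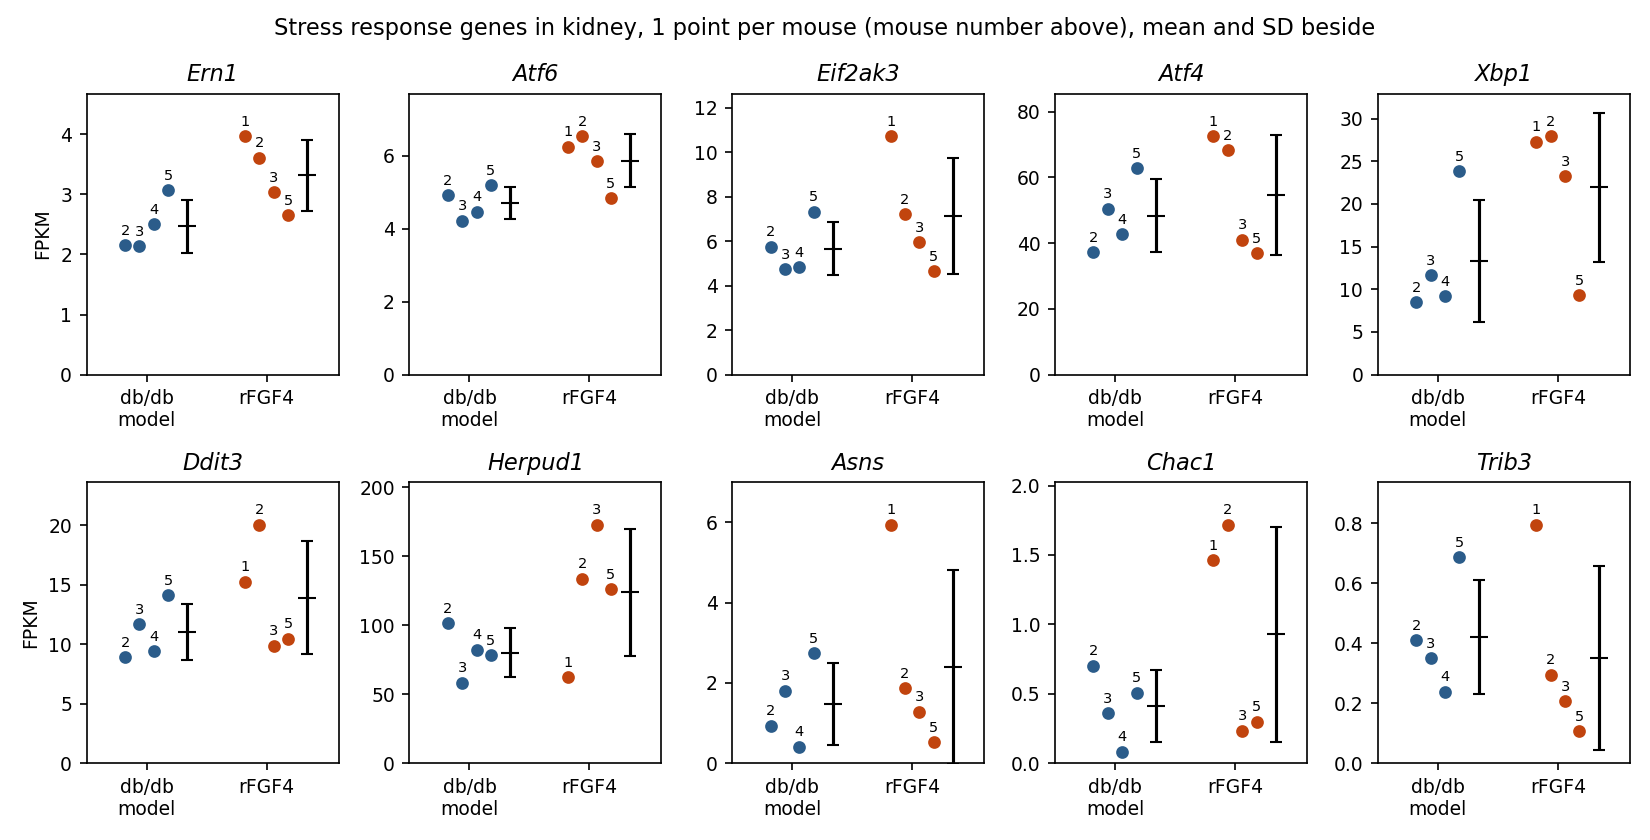
FPKM (vertical axis, from 0, a separate scale for each gene) of the 10 stress response genes in kidneys of the db/db model (blue) and of rFGF4-treated mice (orange), with 1 point per mouse, its number above it, and a bar for the mean ± SD beside each group of 4. The groups overlap for every gene, and rFGF4 mice 1 and 2 supply the highest point for all genes except Herpud1, where rFGF4 mouse 3 does.

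The ER stress sensors were expressed at low to moderate levels, with log2 fold changes of 0.25 to 0.31 and no limma p under 0.05. Ern1 (chr11:106394650-106487852, minus strand; gene positions are those of GENCODE M21 on GRCm38) measured 3.96, 3.61, 3.03 and 2.65 FPKM in rFGF4 mice 1, 2, 3 and 5 and 2.15, 2.13, 2.50 and 3.07 FPKM in db/db mice 2, 3, 4 and 5. Its means were 3.31 ± 0.585 and 2.46 ± 0.438 FPKM (SD, n = 4 each), and the groups overlapped because rFGF4 mice 3 and 5 lay below db/db mouse 5. The log2 fold change was 0.31 (SE 0.15), with limma p = 0.0671 and a two-sided exact permutation p = 0.0857, where 4 mice against 4 can give no p below 0.0286.

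Atf6 (chr1:170704674-170867771, minus strand) measured 6.24, 6.52, 5.85 and 4.84 FPKM in the rFGF4 group and 4.92, 4.21, 4.46 and 5.19 FPKM in the db/db group, in the same order of mice. Here only rFGF4 mouse 5 fell within the range of the db/db group. The log2 fold change was 0.27 (SE 0.13; 95% interval -0.02 to 0.55; limma p = 0.0668, exact permutation p = 0.0857). Eif2ak3 (chr6:70844515-70905245, plus strand) measured 10.7, 7.21, 5.95 and 4.66 FPKM against 5.75, 4.74, 4.82 and 7.32 FPKM. Its range in the rFGF4 group enclosed all 4 db/db mice. The log2 fold change was 0.25 (SE 0.24, limma p = 0.313, exact permutation p = 0.4) and fell to 0.06 without rFGF4 mouse 1 and to 0.14 scaled to nuclear genes. The order of mean levels among the sensors, Eif2ak3 above Atf6 above Ern1, held in the rFGF4 group at 7.13, 5.86 and 3.31 FPKM and in the db/db group at 5.66, 4.70 and 2.46 FPKM, although the ranges of Eif2ak3 and Atf6 overlapped in both. Exons of Eif2ak3 overlap those of Gm43292 on the opposite strand, and how such fragments were divided is not given in the sources used here.

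Among the transcription factors of the pathway, Atf4 was the most abundant and Xbp1 showed the largest difference between the group means. Atf4 (chr15:80255184-80257541, plus strand) measured 72.5, 68.3, 41.0 and 36.9 FPKM in rFGF4 mice 1, 2, 3 and 5 and 37.2, 50.5, 42.7 and 62.8 FPKM in db/db mice 2, 3, 4 and 5. The rFGF4 group thus split into 2 mice above the db/db range and 2 near or just under its lower end. Its log2 fold change of 0.14 (SE 0.26; limma p = 0.608, exact permutation p = 0.686) was the smallest of the 9 and became -0.01 without rFGF4 mouse 1 and 0.02 scaled to nuclear genes.

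Xbp1 (chr11:5520659-5525893, plus strand) measured 27.3, 27.9, 23.3 and 9.29 FPKM in the rFGF4 group and 8.505, 11.6, 9.21 and 23.9 FPKM in the db/db group. The 8 mice fell into 2 sets that did not follow the groups: rFGF4 mice 1, 2 and 3 with db/db mouse 5 at 23.3 FPKM and above, and rFGF4 mouse 5 with db/db mice 2, 3 and 4 at 11.6 FPKM and below. The log2 fold change over all mice was 0.69 (SE 0.41; 95% interval -0.26 to 1.63; limma p = 0.133, exact permutation p = 0.229). It was 1.04 without rFGF4 mouse 5 and 0.99 without db/db mouse 5, past the threshold of the study in both cases. In the same order of mice, 12 immediate early genes, which cells induce within minutes of a stimulus, summed to 242, 280, 259 and 72.8 FPKM in the rFGF4 group and to 61.0, 162, 63.7 and 187 FPKM in the db/db group. Scaled to nuclear genes, the log2 fold change of Xbp1 was 0.57. The B cell and plasma cell sums were 2851, 724, 85.2 and 656 FPKM in the rFGF4 group and 68.5, 1469, 30.7 and 23918 FPKM in the db/db group. They ran from 85.2 to 23918 FPKM in the mice with high Xbp1 and from 30.7 to 1469 FPKM in those with low Xbp1. Most of each sum was Igkc, at 2640, 663, 68.0 and 623 FPKM in the rFGF4 group. In the db/db group Igkc measured 57.6, 1416, 22.4 and 22334.5 FPKM. The part of the immediate early genes and of the plasma cell markers in the Xbp1 values was not tested, and plasma cells are known for high Xbp1.

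Ddit3 (ENSMUSG00000025408; chr10:127290774-127296288, plus strand), whose product CHOP is linked to cell death under lasting ER stress, measured 15.2, 20.0, 9.85 and 10.5 FPKM in the rFGF4 group and 8.89, 11.7, 9.40 and 14.1 FPKM in the db/db group. Again rFGF4 mice 1 and 2 were the highest and db/db mouse 5 the next. The log2 fold change was 0.28 (SE 0.24, limma p = 0.283, exact permutation p = 0.343), 0.09 without rFGF4 mouse 2 and 0.16 scaled to nuclear genes. The other row of this symbol (ENSMUSG00000116429) never exceeded 0.00957 FPKM. Its exons overlap those of Ddit3 on the same strand, and exons of Gm4189 and Mars also overlap Ddit3, so the division of fragments among them is uncertain.

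Herpud1 had the highest mean FPKM of the 10 genes in both groups, although Atf4 exceeded it in rFGF4 mouse 1, and was the one whose order of mice departed from that of the others. Its product is an ER membrane protein of ER-associated degradation, the removal of misfolded proteins from the ER. Herpud1 (chr8:94386438-94395377, plus strand) measured 62.3, 133.9, 172.8 and 126.3 FPKM in rFGF4 mice 1, 2, 3 and 5 and 101.7, 58.4, 82.4 and 78.5 FPKM in db/db mice 2, 3, 4 and 5. In rFGF4 mice 2, 3 and 5 it exceeded every db/db mouse, whereas rFGF4 mouse 1, the highest of all mice for Ern1, Eif2ak3, Atf4, Trib3 and Asns, had the second-lowest value. The log2 fold change was 0.56 (SE 0.31; 95% interval -0.16 to 1.27; limma p = 0.112, exact permutation p = 0.2). Without rFGF4 mouse 1 it was 0.85, past the threshold of the study, and without rFGF4 mouse 3 it was 0.37.

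**Figure D2:**
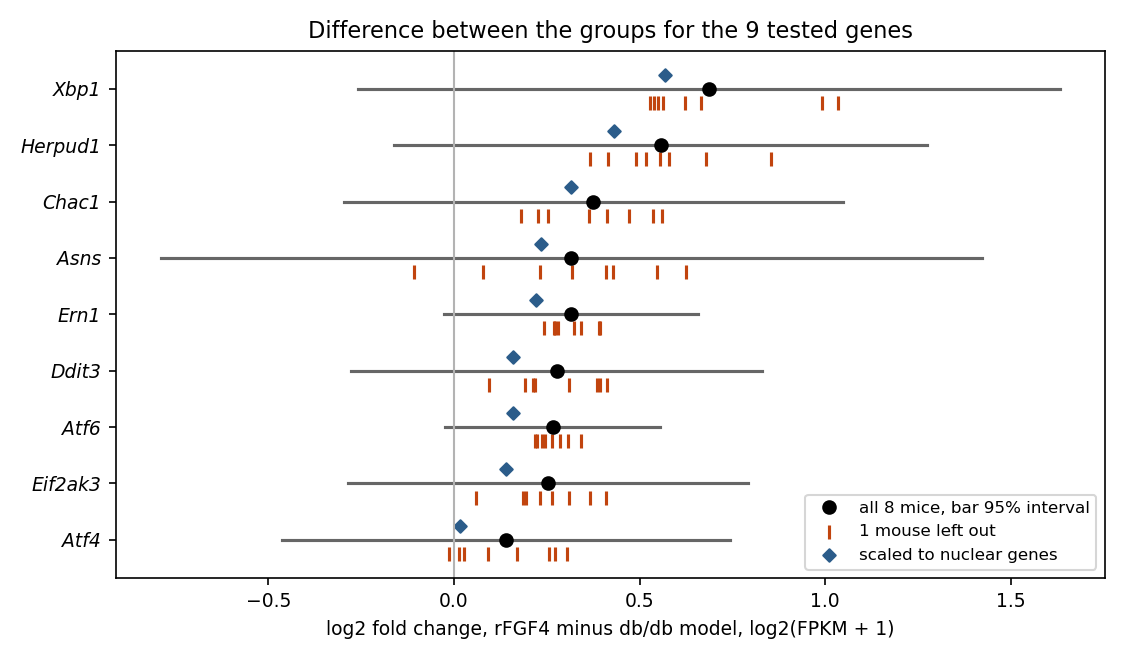
Log2 fold change on log2(FPKM + 1), rFGF4 minus db/db (horizontal axis), for the 9 tested genes, with the 95% interval of the limma fit as a grey bar, each fit with 1 mouse left out as an orange tick and the fit scaled to nuclear genes as a blue diamond. All 9 black points lie above 0 and all 9 intervals cross 0; the ticks of Xbp1 reach 1.04, and those of Atf4 and Asns pass below 0.

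The remaining ATF4 targets were low and the most variable of the set. Asns, the asparagine synthetase (chr6:7675169-7693254, minus strand), measured 5.94, 1.87, 1.28 and 0.516 FPKM in the rFGF4 group and 0.937, 1.81, 0.409 and 2.74 FPKM in the db/db group, a 14.5-fold range over the 8 mice. The highest value belonged to rFGF4 mouse 1 and the next to db/db mouse 5, and the log2 fold change of 0.32 (SE 0.48; limma p = 0.530, exact permutation p = 0.6) turned to -0.11 without rFGF4 mouse 1. Chac1, which degrades glutathione (chr2:119351229-119354381, plus strand), measured 1.46, 1.72, 0.233 and 0.299 FPKM against 0.701, 0.361, 0.0839 and 0.509 FPKM, a 20.5-fold range. Only rFGF4 mice 1 and 2 exceeded 1 FPKM, and the log2 fold change was 0.38 (SE 0.29; limma p = 0.235, exact permutation p = 0.343); at these levels the added 1 FPKM reduces it. It was 0.18 without rFGF4 mouse 2, 0.23 without rFGF4 mouse 1 and 0.80 with a pseudocount of 0.1.

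Trib3, a pseudokinase that restrains ATF4 and CHOP (chr2:152337422-152344032, minus strand), measured 0.794, 0.295, 0.207 and 0.107 FPKM in the rFGF4 group and 0.410, 0.349, 0.238 and 0.687 FPKM in the db/db group. It reached 0.5 FPKM in 2 libraries only, rFGF4 mouse 1 and db/db mouse 5, and did not enter the fit. It was the only 1 of the 10 genes with a lower mean FPKM in the rFGF4 group, 0.351 ± 0.305 against 0.421 ± 0.191 (SD, n = 4 each, exact permutation p = 0.6).

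For each of the 10 genes, the range within the rFGF4 group was wider than the difference between the group means. rFGF4 mouse 1 was the highest of the 8 mice for 5 of the 10 genes (Ern1, Eif2ak3, Atf4, Trib3 and Asns) and among the highest 2 for 9. rFGF4 mouse 2 was highest for 4 (Atf6, Xbp1, Ddit3 and Chac1). rFGF4 mouse 5, by contrast, was the lowest of all for Eif2ak3, Atf4 and Trib3. Within the db/db group, mouse 5 was the highest for every gene except Herpud1 and Chac1, where mouse 2 was. These 3 high mice also had the lowest mitochondrial shares (19.0%, 24.7% and 24.4% in rFGF4 mice 1 and 2 and db/db mouse 5) and the highest macrophage sums, and rFGF4 mouse 1 stood apart in other markers too. Its kidney marker sum was the lowest of the 8 mice, at 1311 FPKM against 1730 FPKM in db/db mouse 5 and 2209 to 2654 FPKM in the other 6. Slc34a1, a phosphate transporter of the proximal tubule, measured 135.9 FPKM in it against 482.6 to 823.9 FPKM elsewhere, and its red blood cell sum was 120.3 FPKM against 436.5 to 4325 FPKM. The part of the macrophage, tubule and red blood cell markers in the values was not tested. Scaled to nuclear genes, Atf4 measured 62.2 and 63.1 FPKM in rFGF4 mice 1 and 2 and 57.8 FPKM in db/db mouse 5, against 40.1 to 53.4 FPKM in the other mice. On the same scale Atf6 lost this order, with 5.35 FPKM in rFGF4 mouse 1 and 4.78 FPKM in db/db mouse 5, both below the 5.55 FPKM of db/db mouse 2. Ern1 in db/db mouse 5, at 2.82 FPKM, then lay below rFGF4 mice 3 and 5, at 3.003 and 2.88 FPKM.

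**Figure D3:**
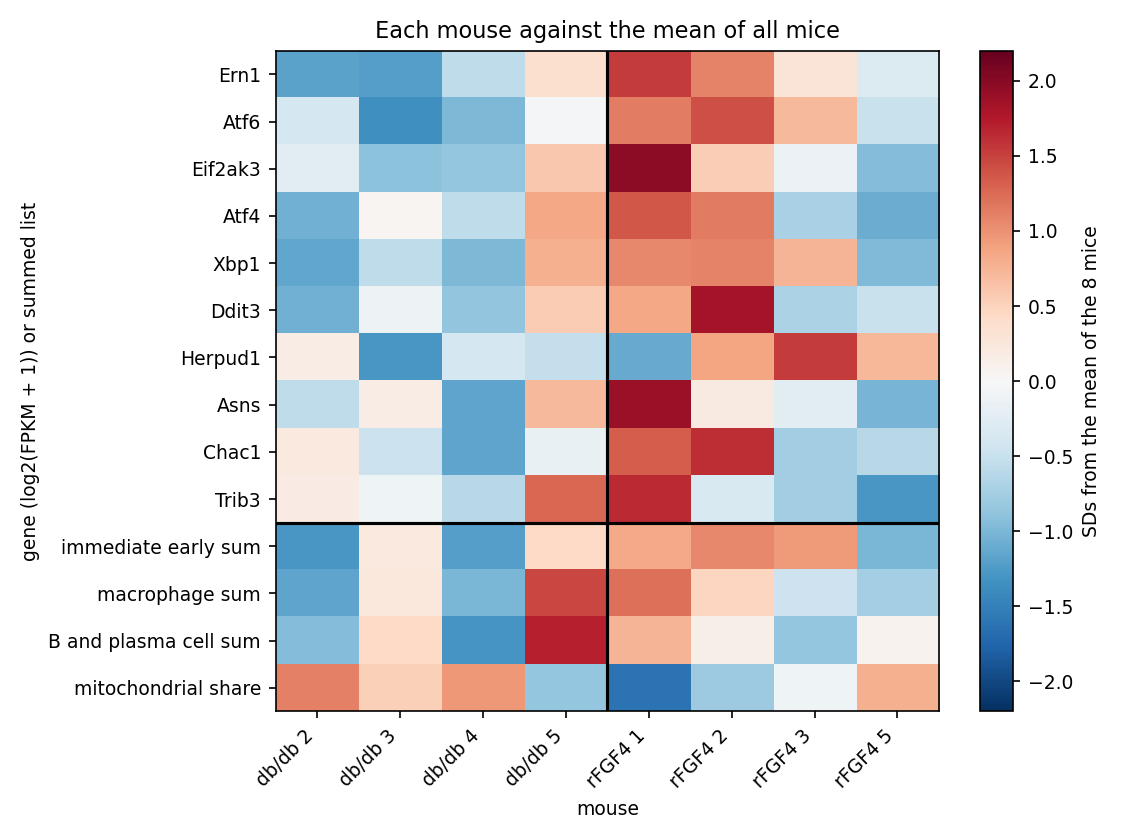
Each mouse (columns, groups parted by the vertical line) against the mean of the 8 mice, in SDs of log2(FPKM + 1), for the 10 genes, and below the horizontal line for summed marker lists (log2) and the mitochondrial share of FPKM. rFGF4 mice 1 and 2 and db/db mouse 5 are red in most gene rows and blue in the mitochondrial row, and the Herpud1 row has its own order, highest in rFGF4 mouse 3.

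Across the 8 mice most of the genes varied together. The 9 pairs with Xbp1 are left out here because its values fell into separate sets. Of the other 36 pairs, 30 had a positive Pearson r on log2(FPKM + 1), with a median of 0.673. After Benjamini-Hochberg adjustment over all 45 pairs, 6 of these 36 had an exact permutation p under 0.05 by Pearson's r and 0 by Spearman's rho, and none of the 6 calls held after scaling to nuclear genes, so these relations are given as a description. Atf4 and Ddit3 had r = 0.909 (exact permutation p = 0.00198, adjusted 0.0444) and rho = 0.810 (exact permutation p = 0.0218, adjusted 0.0891), with r = 0.904 without the 2 mice farthest from the median of Atf4 and 0.824 scaled to nuclear genes. The sensors Ern1 and Atf6 had r = 0.893 (exact permutation p = 0.00404, adjusted 0.0444) and rho = 0.881 (exact permutation p = 0.00724, adjusted 0.0891), with r = 0.825 without the 2 farthest mice and 0.620 scaled to nuclear genes. Atf4 and its target Asns had r = 0.854 (exact permutation p = 0.00375, adjusted 0.0444) and rho = 0.833 (exact permutation p = 0.0154, adjusted 0.0891), and r = 0.843 without the 2 farthest mice. The remaining pairs of the 6 fell further without the 2 farthest mice. Eif2ak3 and Asns went from r = 0.895 to 0.576, and Trib3 and Asns from 0.863 to 0.503. For Ern1 and Eif2ak3, r went from 0.843 to 0.669. Herpud1 had a negative r with 6 of 8 genes. As deviations from the group means, given with no test, r was 0.923 for Atf4 and Ddit3, 0.783 for Ern1 and Atf6 and 0.847 for Atf4 and Asns.

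Genes with the pattern most like that of the 3 members with the largest differences were sought among 15141 others by Pearson's r over the 8 mice, as a description. For Xbp1 these were Egr3, Btaf1 and Egr2, where Egr3 and Egr2 are immediate early transcription factors, and their r is not given because of the separate sets. For Herpud1 they included Slc52a2 (r = 0.973) and Piga (r = 0.970), and for Chac1 they were Gm5165 (r = 0.975), Foxc1 (r = 0.974) and Stx6 (r = 0.970). The highest of many coefficients over 8 mice is high by selection.

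The wider pathway was read from 7 lists with 140 further genes, of which 131 were tested, and 1 of which, Dnajc3, stands in 2 lists. In these, 104 were higher and 27 lower in the rFGF4 group (79.4% higher), 13 had an unadjusted p under 0.05, all of them higher (9.92% of tested genes). In 9 the groups did not overlap, and 4 passed the threshold of the study: Txnip, Sel1l, Dnajb9 and Srp72. Over all tested genes the matching shares were 67.1% higher, 3.56% higher at an unadjusted p under 0.05, 3.33% without overlap (here 6.87%) and 1.53% past the threshold (here 3.05%). The median log2 fold change was 0.15, against 0.09 for all tested genes. Scaled to nuclear genes, the median was 0.04, with 75 of the 131 genes higher, where 48.1% of all tested genes were higher. An unadjusted p under 0.05 was then reached by 7 genes, 6 higher (Txnip, Dnajb9, Sel1l, Hyou1, Nploc4 and Srp72) and 1 lower (Bloc1s1), which is 5.34% of the 131 against 4.36% of all tested genes on that scale. None had an adjusted p under 0.05 with limma.

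ER chaperones and folding enzymes, many of them targets of XBP1 or ATF6, held 1 of the genes past the threshold, Dnajb9. All 24 genes were tested, 21 higher and 3 lower, with 3 at an unadjusted p under 0.05 and a median log2 fold change of 0.13 that became 0.01 scaled to nuclear genes and 0.02 without rFGF4 mouse 1. Dnajb9, a BiP co-chaperone that restrains IRE1-alpha, measured 27.5, 34.3, 23.0 and 18.4 FPKM in the rFGF4 group and 14.1, 10.9, 14.3 and 17.8 FPKM in the db/db group. Every rFGF4 mouse thus lay above every db/db mouse, with means of 25.8 ± 6.79 and 14.3 ± 2.84 FPKM (SD, n = 4 each) and a log2 fold change of 0.80 (SE 0.21; limma p = 0.0053, exact permutation p = 0.0286). Hyou1, an ER chaperone, had a log2 fold change of 0.56 (limma p = 0.0127, exact permutation p = 0.0857), and calnexin, Canx, one of 0.33 (limma p = 0.0232, exact permutation p = 0.0571). Hyou1 passed the threshold of the study without rFGF4 mouse 5 (0.73) or without db/db mouse 5 (0.59). The most abundant members, Calr and P4hb, had means of 281.8 and 243.2 FPKM in the rFGF4 group and 259.5 and 213.6 FPKM in the db/db group, with exact permutation p of 0.629 and 0.0857.

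In ER-associated degradation, 20 of 21 genes were tested, 14 higher and 6 lower, with a median log2 fold change of 0.11 that became 0.003 scaled to nuclear genes and 0.05 without rFGF4 mouse 1. Sel1l, the scaffold of the HRD1 ubiquitin ligase that carries misfolded proteins out of the ER, measured 9.16, 8.02, 7.17 and 6.26 FPKM in the rFGF4 group and 4.47, 2.66, 5.79 and 3.56 FPKM in the db/db group, again with no overlap. Its log2 fold change was 0.78 (SE 0.21; limma p = 0.00493, exact permutation p = 0.0286). Nploc4, a cofactor of the p97 segregase, had a log2 fold change of 0.38 (limma p = 0.00781, exact permutation p = 0.0286) without overlap. Os9 and Vcp, the most abundant of the list, had means of 82.2 and 63.4 FPKM in the rFGF4 group and 73.7 and 54.3 FPKM in the db/db group, with an exact permutation p of 0.0571 for both.

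Of the machinery around eIF2, all 15 kinases, eIF2 and eIF2B subunits and phosphatase subunits were higher (9 of 15 scaled to nuclear genes), with a median log2 fold change of 0.19 that became 0.06 scaled to nuclear genes. An unadjusted p under 0.05 was reached by 2 of them, both without overlap. Eif2s3x, the gamma subunit of eIF2, measured 27.3 ± 1.76 against 20.8 ± 1.72 FPKM (SD, n = 4 each; log2 fold change 0.37, limma p = 0.00738, exact permutation p = 0.0286). Eif2b4, a subunit of the exchange factor eIF2B, had a log2 fold change of 0.32 (limma p = 0.0262, exact permutation p = 0.0286). Scaled to nuclear genes, 0 of the 15 reached it, and with 1 mouse left out 1 to 4 were higher at that p. Of all tested genes, in either direction, 4.36% reached it scaled to nuclear genes and 2.84% to 9.44% with 1 mouse left out. Dnajc3, which inhibits eIF2-alpha kinases, measured 21.8 ± 1.93 against 19.0 ± 1.59 FPKM (SD, n = 4 each) with an exact permutation p = 0.0857. Of 33 other ATF4 and CHOP targets, 28 were tested, 21 higher and 7 lower, with a median of 0.24 that became 0.14 scaled to nuclear genes and 0.06 without rFGF4 mouse 1. An unadjusted p under 0.05 was reached by 2 of the higher genes and by 0 scaled to nuclear genes. With 1 mouse left out it was reached by 0 to 8 (8 without rFGF4 mouse 5, 0 without rFGF4 mouse 2 or 3 or db/db mouse 2). The share of all tested genes at that p, in either direction, was 4.62% with all mice and 9.44% without rFGF4 mouse 5. It was 2.84%, 3.32% and 3.29% without rFGF4 mouse 2, rFGF4 mouse 3 and db/db mouse 2. Sqstm1, the autophagy receptor p62, had a log2 fold change of 0.34 (limma p = 0.0279, exact permutation p = 0.0286) without overlap. Sesn2, a leucine sensor that restrains mTORC1, had a log2 fold change of 0.47 (limma p = 0.0400, exact permutation p = 0.0571), which passed the threshold of the study at 0.62 without db/db mouse 3. Shmt2, an enzyme of mitochondrial serine metabolism, measured 57.0 ± 21.3 against 68.4 ± 11.4 FPKM (SD, n = 4 each) with an exact permutation p = 0.4.

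**Figure D4:**
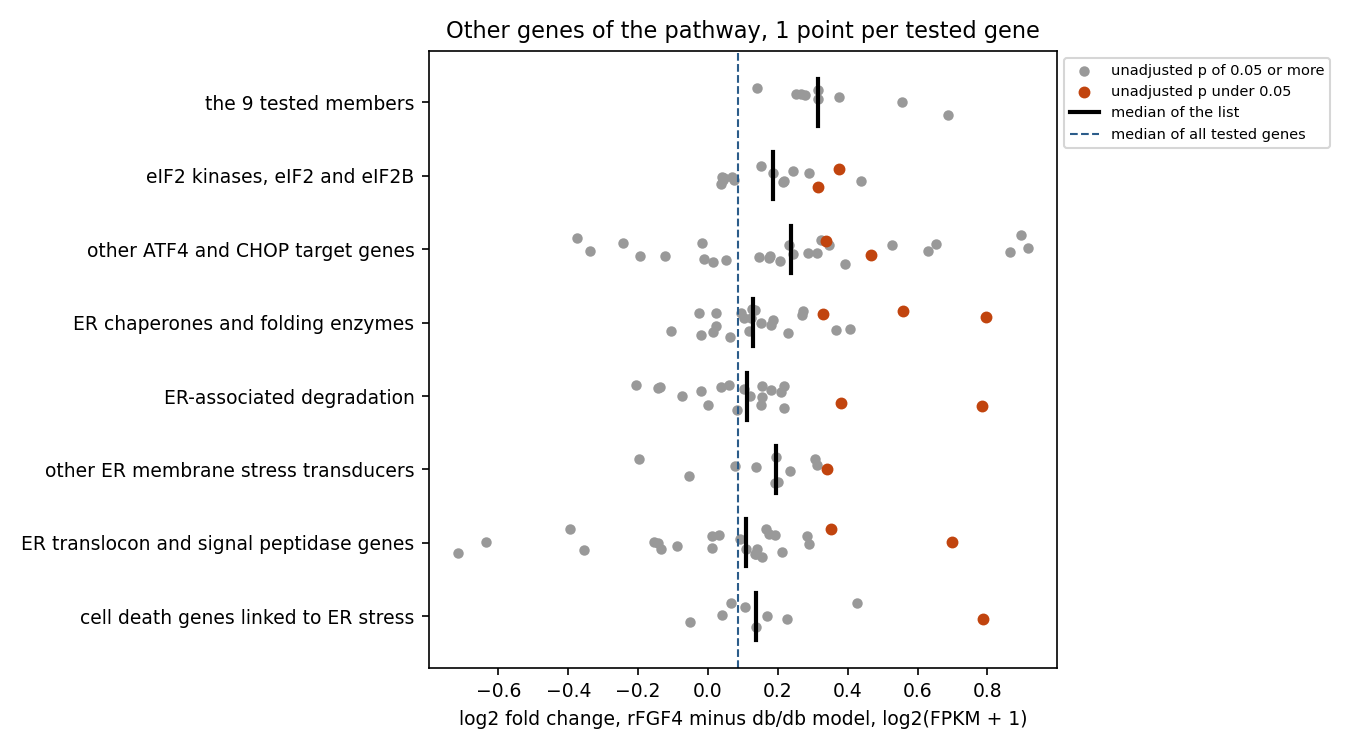
Log2 fold change on log2(FPKM + 1), rFGF4 minus db/db (horizontal axis), of the tested genes of the set described here and of 7 further lists of the pathway (rows), with 1 point per gene, orange where the unadjusted limma p was under 0.05, a black line at the median of each list and a dashed line at the median of all tested genes (0.09). All 13 orange points lie above 0, and the 9 members have grey points only.

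Of 13 other ER membrane transducers and processing enzymes, 11 were tested, 9 higher and 2 lower, with a median log2 fold change of 0.20 that became 0.10 scaled to nuclear genes and 0.07 without rFGF4 mouse 1. Creb3l2, an ATF6-like factor of the ER membrane, had a log2 fold change of 0.34 (limma p = 0.0246, exact permutation p = 0.0286) without overlap. Scaled to nuclear genes, Creb3l2 no longer passed an unadjusted p of 0.05, and Bloc1s1, which was lower, did. Tmbim6, an ER membrane protein that restrains cell death and the most abundant of the list, measured 325.1 ± 34.2 against 295.5 ± 29.3 FPKM (SD, n = 4 each) with an exact permutation p = 0.171. Rtcb, the ligase that joins Xbp1 exons after IRE1-alpha has cut them, measured 47.1 ± 7.18 against 37.5 ± 3.39 FPKM (SD, n = 4 each) with an exact permutation p = 0.0571. Bloc1s1, a substrate of the decay activity of IRE1-alpha, measured 49.7 ± 2.15 against 57.6 ± 9.17 FPKM (SD, n = 4 each) with an exact permutation p = 0.143. All 25 ER translocon and signal peptidase genes were tested, 17 higher and 8 lower, with a median of 0.11 that became -0.00054 scaled to nuclear genes and -0.01 without rFGF4 mouse 1. Its most abundant genes were Ddost, a subunit of the oligosaccharyltransferase, at 54.7 ± 13.9 against 49.5 ± 10.8 FPKM (SD, n = 4 each), and Sec62, of the post-translational translocon, at 49.4 ± 6.72 against 49.0 ± 6.75 FPKM (SD, n = 4 each). In this list Srpr, the receptor of the signal recognition particle, had a log2 fold change of 0.35 (limma p = 0.0160, exact permutation p = 0.0286) without overlap. Srp72, a protein of that particle, had a log2 fold change of 0.70 (limma p = 0.0192, exact permutation p = 0.0571). It lost its call at 0.58 scaled to nuclear genes and also without rFGF4 mouse 1, db/db mouse 2 or db/db mouse 5 (0.55 to 0.59).

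Of 10 cell death genes linked to ER stress, 9 were tested, 8 higher and 1 lower, with a median log2 fold change of 0.14 that became 0.06 scaled to nuclear genes. With 1 mouse left out it lay between -0.08 (without rFGF4 mouse 1) and 0.42 (without db/db mouse 5). Txnip, a thioredoxin inhibitor known to rise with glucose and with IRE1-alpha or PERK activity, passed the threshold of the study and had the smallest p of all the genes listed here. It measured 230, 237, 179 and 154 FPKM in the rFGF4 group and 101, 112, 101 and 147 FPKM in the db/db group. The log2 fold change was 0.79 (SE 0.19; limma p = 0.00329, exact permutation p = 0.0286). Bax, a pore-forming protein of the mitochondrial death pathway and the lower gene of the list, measured 16.8 ± 5.28 against 17.7 ± 6.29 FPKM (SD, n = 4 each) with an exact permutation p = 0.914.

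Stress genes outside the ER were read beside these. Of 12 immediate early genes, 11 were tested and all 11 were higher in the rFGF4 group, with 1 of them, Dusp1, past an unadjusted p of 0.05 (limma p = 0.0221, exact permutation p = 0.0286). The most abundant when averaged over all mice, Ier3 and Junb, had means of 49.6 and 31.3 FPKM in the rFGF4 group. In the db/db group their means were 45.9 and 13.7 FPKM. All 11 stayed higher after scaling to nuclear genes, with 1 at that p, and with 1 mouse left out 10 or 11 were higher, with 0 to 8 at that p (8 without rFGF4 mouse 5, 5 without db/db mouse 5, 0 without rFGF4 mouse 2 or 3 or db/db mouse 4). All 8 cytosolic heat shock genes were higher, with 1, Hsph1, past it (limma p = 0.0410, exact permutation p = 0.0571). The most abundant when averaged over all mice, the chaperones Hspa8 and Hsp90aa1, had means of 383.9 and 46.9 FPKM in the rFGF4 group. In the db/db group their means were 289.0 and 43.3 FPKM. After scaling to nuclear genes, 7 of the 8 were higher and 0 passed that p. With 1 mouse left out, 7 or 8 were higher and 0 to 2 passed it (2 without rFGF4 mouse 3 or 5 or db/db mouse 5, 0 without rFGF4 mouse 2 or db/db mouse 2, 3 or 4). Of all tested genes, 67.1% were higher, or 48.1% scaled to nuclear genes, and 3.56% were higher at an unadjusted p under 0.05. With 1 mouse left out, 52.2% to 72.3% were higher. In either direction, that p was reached by 4.62% with all mice and 4.36% scaled to nuclear genes. The share was 9.44% without rFGF4 mouse 5 and 6.51% without db/db mouse 5. Without any other single mouse it was 2.84% to 4.23%. The 8 heat shock genes summed to 592, 640, 626 and 385 FPKM in rFGF4 mice 1, 2, 3 and 5 and to 310, 482, 371 and 495 FPKM in db/db mice 2, 3, 4 and 5. As with Xbp1, the lowest sum in the rFGF4 group belonged to mouse 5 and the highest sum in the db/db group to mouse 5 of that group.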

How the data were processed

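Libraries were poly(A)-selected, paired-end and sequenced per the labels. The authors mapped the reads, assembled transcripts with StringTie, merged them with gffcompare and deposited FPKM per gene; the submitters' processing notes name Bowtie 0.12.2, HISAT2 2.0, StringTie 1.3.0 and mm8 without a role. Deposited values of 0.0001 were read as 0. The deposited edgeR columns (fold change, its log2, p-value and q-value) were not used. Of 55401 identifiers, 55141 (99.5%) were found in GENCODE M21, which gave the positions. Genes with at least 0.5 FPKM in 4 or more libraries were tested on log2(FPKM + 1) with limma 3.58.1 in R 4.3.3 (trend, Benjamini-Hochberg), after a check on simulated data. The edgeR test of the methods needs counts and was not run. Single genes had two-sided exact permutation tests (scipy 1.17.1). All p-values rest on 1 library per mouse. Members, lists and tests were chosen with earlier results of these data known. All 10 members were named; from each pathway or stress list, genes were named by smallest p and highest mean FPKM, and cell type markers were given as sums. Alternatives were another pseudocount (0.1), no filter, 2 scalings, array weights, fold changes of group means, a replicate block and each mouse left out. Leaving out rFGF4 mouse 1 and db/db mouse 5, the mice with the highest macrophage markers, was added after seeing the data. The result of 1 gene among those most like Herpud1 is not reported here.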

Additional observations from a re-analysis of the deposited data

Results flagged for a closer look

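Xbp1 in rFGF4 mouse 5 stood apart from its group, at 9.29 FPKM against 23.3 to 27.9 FPKM in rFGF4 mice 1, 2 and 3. On log2(FPKM + 1), the gap to the nearest mouse was 0.83 of the range of the group, just past Dixon's 95% limit for 4 values. On FPKM itself it was 0.75, which does not pass that limit. Among 20 groups of 4 examined this was the 1 that passed, and chance passes about 1 in 20. The value lay within the range of db/db mice 2, 3 and 4, which reached 11.6 FPKM.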

How the results depend on the processing

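Of the 16 alternatives, the median log2 fold change of the 9 genes stayed positive in all (0.15 to 0.43). Atf4 turned to -0.063 with a replicate block for the mouse numbers and lay between -0.013 (without rFGF4 mouse 1) and 0.30 with 1 mouse left out; Eif2ak3 became 0.00081 with the block; Asns turned to -0.35 with it, and lay between -0.11 (without the same mouse) and 0.62. Calls of members at the threshold of the study (0 in the report) became 1 with the replicate block (Herpud1, 0.87) and 2 with array weights (Xbp1, 1.01, and Herpud1, 0.72). They became 1 without the 2 mice with the highest macrophage markers (Herpud1, 0.85, chosen after seeing the data), and 0 to 1 with 1 mouse left out. Over all 15150 tested genes, the 232 calls became 263 with the block, 496 with array weights and 273 without those 2 mice. With 1 mouse left out, all tested genes had 188 to 580 calls. Members with an unadjusted p under 0.05 (0) became 1 at a common median ratio (Ern1), 1 with the replicate block and 4 with array weights. They became 2 without those 2 mice and 0 to 3 with 1 mouse left out (3 without rFGF4 mouse 5). Of all 15150 tested genes, 700 had such a p. That count became 741 at a common median ratio, 394 with the block and 1817 with array weights. It became 860 without those 2 mice and 431 to 1430 with 1 mouse left out (1430 without rFGF4 mouse 5). The smallest adjusted p of any member was 0.391. The labels give mouse numbers but do not say whether they pair the samples. Deviations from the group means of same-numbered mice correlated at -0.229, -0.155 and -0.393. So few values cannot settle whether the numbers pair the mice, and the block is given as an alternative only. Of the 13 pathway genes with an unadjusted p under 0.05, 2 (Sel1l and Srp72) kept it with the block. Dnajb9 (0.76) and Txnip (0.66) lost their calls with it, and Hyou1 and Canx their p under 0.05. Over the 16 alternatives, the median log2 fold change of the ER chaperones lay between -0.12 and 0.27. That of the translocon list lay between -0.06 and 0.21, and that of the cell death list between -0.15 and 0.42. In the other pathway lists the median stayed above 0. The 6 pairs of members with an adjusted p became 0 with the pseudocount of 0.1, both scalings and without those 2 mice, and 0 to 2 with 1 mouse left out.

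Over all genes, the 232 calls became 496 with array weights, 383 with folds of group means and 188 to 580 with 1 mouse left out (580 without rFGF4 mouse 5, 434 without db/db mouse 5). The 165 higher calls became 249 with the pseudocount of 0.1, 106 at a common median ratio (with 78 lower), 96 scaled to nuclear genes, 363 with array weights, 275 with folds of group means and 127 to 419 with 1 mouse left out. The 67 lower calls became 133, 108 and 51 to 161 in the last 3. The adjusted count of 0 became 1 with no filter and 0 to 1 with 1 mouse left out. Depth is unknown, so counting error could not be set beside Chac1, Trib3 and Asns.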
